A study of Mus musculus with 14 samples.

Results

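The interleukin genes and the genes of their receptors were followed in bulk RNA-Seq of the mouse esophagus. They were taken by symbol, as every gene whose name begins with Il and a digit, leaving out pseudogenes and opposite-strand transcripts, which gave 82 of the 55291 genes in the count files. The 82 comprised 37 ligands, 2 antagonists, 38 receptor chains, 4 decoys or soluble binding proteins and 1 enzyme that shares the naming (Il4i1), and 20 of them belonged to the IL-1 family. RNA came from wild-type C57BL/6 mice that were aged (18 months or more by the labels) or young (4 months or less), and the labels name no transgene or treatment. The study describes its peeled epithelium as an epithelium-enriched mucosal layer, obtained by pulling off the muscle, and the sources used here do not say how the stroma was taken. Tissue labelled stroma was sequenced from 3 aged mice, coded O1, O2 and O3, and from 2 young mice, coded Y1 and Y3. The epithelium of the same mice was sequenced with that of 2 further aged mice (OF5 and OM8) and 2 further young ones (YF5 and YM4), which gave 9 epithelial samples, 5 of them aged.

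Interleukins are secreted or released signalling proteins, and each acts only on cells that carry the matching receptor chains. Members of the IL-1 family are made in large part by barrier epithelia, many are held in the cell as precursors and released on damage, and their receptors signal through MYD88 and IRAK kinases. Most other interleukins are products of lymphocytes and myeloid cells and signal through JAK and STAT proteins. Decoy receptors and antagonists bind the same partners without signalling.

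Total counts were 8217516 to 9399448 in the 4 mice with epithelium only, of which 1042394 to 1433857 were on protein-coding genes. In the other samples total counts were 13257833 to 21867101, with 6665526 to 11067320 on protein-coding genes. Most counts in the 4 mice with epithelium only were thus not on protein-coding genes. In these 4 mice 3 counts correspond to 0.704 to 1.24 normalized counts, against 0.0868 to 0.174 in the other samples. Normalized counts are CPM (counts scaled to a common library size) after TMM adjustment. Markers followed the layer labels: all 8 squamous markers, among them Krt5 and Krt13, were higher in epithelium and all 6 skeletal muscle markers were lower. The summed squamous markers in stroma were 0.481% of their mean in epithelium, and the summed skeletal muscle markers in epithelium were 0.759% of their mean in stroma. Squamous marker sums in epithelium were 18986 to 29711 normalized counts in the 4 mice with epithelium only. In the 5 mice with both layers they were 43323 to 56725. Fibroblast and smooth muscle markers separated the layers less, with summed means in epithelium at 61.7% and 60.3% of those in stroma. In the tissue labelled stroma the summed skeletal muscle markers averaged 43162 normalized counts. The smooth muscle and fibroblast sums there averaged 938 and 751. The stroma of O3 stood apart from the other stromal samples, with 2161 normalized counts summed over 7 B and plasma cell markers against 36.6 to 249 in the other 4. In bulk tissue, fewer cells of a type and less RNA per cell cannot be told apart.

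The esophageal epithelium carried mainly IL-1 family transcripts, while the stroma carried mainly chains of the IL-6 receptor family. The 82 genes summed to 504 to 589 normalized counts in the 9 epithelial samples and to 288 to 308 in the 5 stromal samples. IL-1 family genes made up 59.1% to 74.9% of that sum in epithelium and 7.76% to 11.2% in stroma. Per kilobase of exon, the highest mean levels in epithelium were those of Il1f6 (61.6 ± 17.9 normalized counts per kb, SD, n = 9), Il1f9 (33.3 ± 7.53), Il18 (31.3 ± 5.05) and Il1f8 (21.2 ± 4.21). The ranges over the samples overlapped between each of these genes and the next in the order. The order depends on the division by length. Without it the epithelial means of Il1f9, Il1f6, Il1f5 and Il6st were 54.9, 54.4, 54.1 and 47.0 normalized counts. Those of Il18 and Il1f8 were 32.3 and 25.8. In stroma the order was led by Il6st (11.8 ± 1.07 normalized counts per kb, SD, n = 5), followed by Il11ra1 (5.18 ± 2.18), Il6ra (3.16 ± 0.811) and Il17rc (2.74 ± 0.737), and the ranges of Il11ra1 and Il6ra overlapped, as did those of Il6ra and Il17rc.

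Of the 82 genes, 39 had enough counts to be tested between the layers, and 30 of these were called (quasi-likelihood test of edgeR, Benjamini-Hochberg adjusted p-value under 0.05). The same test called 56.2% of all 16791 genes tested. The 30 comprised 18 genes higher in epithelium, or 46.2% of the 39 against 26.1% of all genes tested, and 12 lower, or 30.8% against 30.1%. The median log2 fold change (epithelium over stroma) of the 39 was 0.95, and that of all genes tested was -0.05. Of the 39 genes tested, 21 were called and had no overlap between epithelial and stromal samples, against 31.3% of all genes tested. Among called genes alone, these were 21 of the 30, against 5253 of 9443 over all genes. All 8 tested ligands and antagonists of the IL-1 family were higher in epithelium, whereas all 4 tested receptor chains of the IL-6 and IL-12 family were lower.

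**Figure D1:**
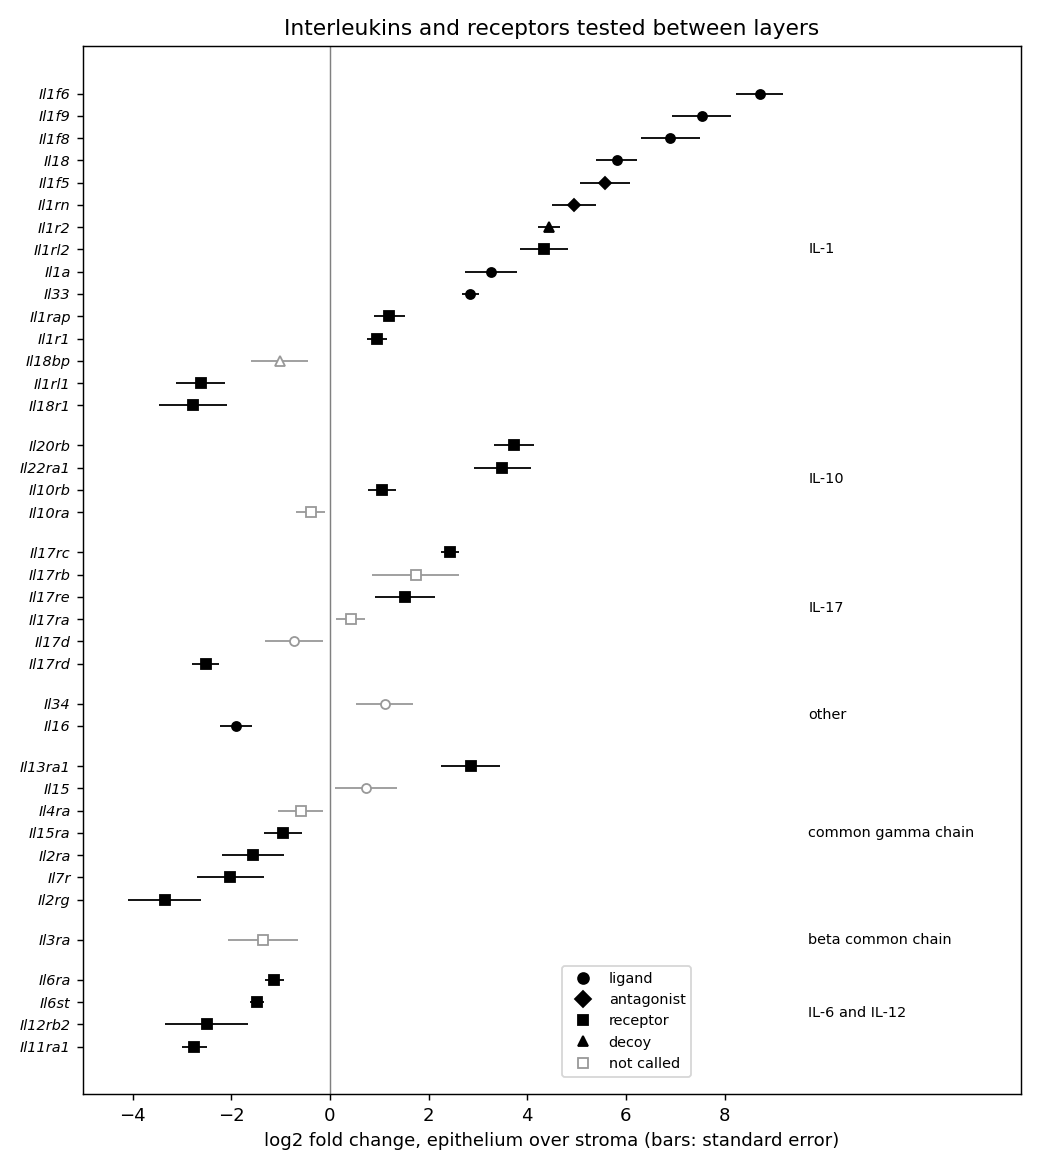
The x axis gives the log2 fold change of epithelium over stroma and the y axis the 39 tested genes by family; bars are standard errors, filled symbols are genes called by edgeR, and symbol shapes give the role. Il1f6 lies farthest to the right at 8.71 and Il2rg farthest to the left at -3.35, and the 4 genes of the IL-6 and IL-12 family all lie left of 0.

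The 3 IL-36 agonists, which activate keratinocytes and dendritic cells through the receptor encoded by Il1rl2, had the 3 largest log2 fold changes of the 39 genes tested. Il1f6 (IL-36 alpha) ran from 34.2 to 87.9 normalized counts in epithelium with a median of 55.5, and had 0, 0.368, 0, 0.103 and 0.118 in the stroma of O1, O2, O3, Y1 and Y3. Every epithelial sample was far above every stromal one, and the log2 fold change was 8.71 ± 0.48 (SE, adjusted p = 1.76e-11 from edgeR). Il1f9 (IL-36 gamma) ran from 34.7 to 75.5 in epithelium (median 55.0) and was at 0, 0.0818, 1.07, 0.154 and 0.0392 normalized counts in the same stromal order. The difference was 7.53 ± 0.60 on the log2 scale (SE, adjusted p = 1.66e-08). Il1f8 (IL-36 beta) ran from 17.5 to 33.4 in epithelium (median 24.2), against 0.0392 to 0.859 in the stroma of O2, Y1 and Y3 and 0 in that of O1 and O3. The difference was 6.90 ± 0.60 on the log2 scale (SE, adjusted p = 3.15e-08). The stromal values behind these folds rest on few reads, between 0 and 28 per sample, so the size of the fold is loosely fixed. Leaving out the stroma of O3 moved Il1f9 to a log2 fold change of 9.50 and leaving out mouse O2 moved Il1f8 to 9.30, with both genes still called.

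The antagonists of the family were higher in the same layer as its agonists. Il1f5, the antagonist of the IL-36 receptor, had a mean of 54.1 ± 10.4 normalized counts over the epithelial samples (SD, n = 9) and 0.755, 0.941, 3.24, 0.154 and 0.392 in the stroma of O1, O2, O3, Y1 and Y3. The layers did not overlap, and the log2 fold change was 5.57 ± 0.51 (SE, adjusted p = 9.32e-08). Il1rn, the antagonist of the IL-1 receptor, had 33.3 ± 4.57 normalized counts in epithelium and 1.06 ± 0.785 in stroma (SD, n = 9 and n = 5), a log2 fold change of 4.94 ± 0.44 (SE, adjusted p = 2.57e-08). Measured per kilobase, the summed IL-36 agonists exceeded Il1f5 in every epithelial sample, by 6.41 to 12.6 times. Without division by length their epithelial means were 135 and 54.1 normalized counts. Il1rn exceeded the agonist Il1a per kilobase by 1.46 to 4.74 times across the same 9 samples, with means of 33.3 and 4.92 without that division.

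Among the other agonists, Il18 and Il33 were abundant and Il1a was lower. Il18, which induces interferon gamma once caspase-1 has cut it, ran from 25.3 to 40.3 normalized counts in epithelium (median 31.9) and had 0, 1.19, 0.267, 0.462 and 0.824 in the stroma of O1, O2, O3, Y1 and Y3. The difference was 5.81 ± 0.42 on the log2 scale (SE, adjusted p = 7.78e-10). Il33, a nuclear alarmin, ran from 25.4 to 38.6 in epithelium (median 32.4) and had 3.72, 3.76, 5.94, 4.42 and 4.31 normalized counts in the same stromal order. The layers did not overlap for Il33 (log2 fold change 2.85 ± 0.17 SE, adjusted p = 2.95e-11). Its stromal mean was 13.9% of its epithelial mean, and the source of the stromal transcripts was not tested. Il1a, which keratinocytes release on damage, ran from 2.40 to 9.13 in epithelium (median 4.46) and from 0 to 0.871 in stroma (log2 fold change 3.27 ± 0.53 SE, adjusted p = 2.62e-05). The gene Gm14023 overlaps 222 exonic bases of Il1a on the opposite strand, and whether the counting used strand is not given in the sources used here. Il1b, the agonist of activated myeloid cells, was hardly detected, with at most 22 counts in an epithelial sample and 29 in the stroma of O1. Il1f10 (IL-38) had at most 6 counts in any sample. Neither was tested.

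**Figure D2:**
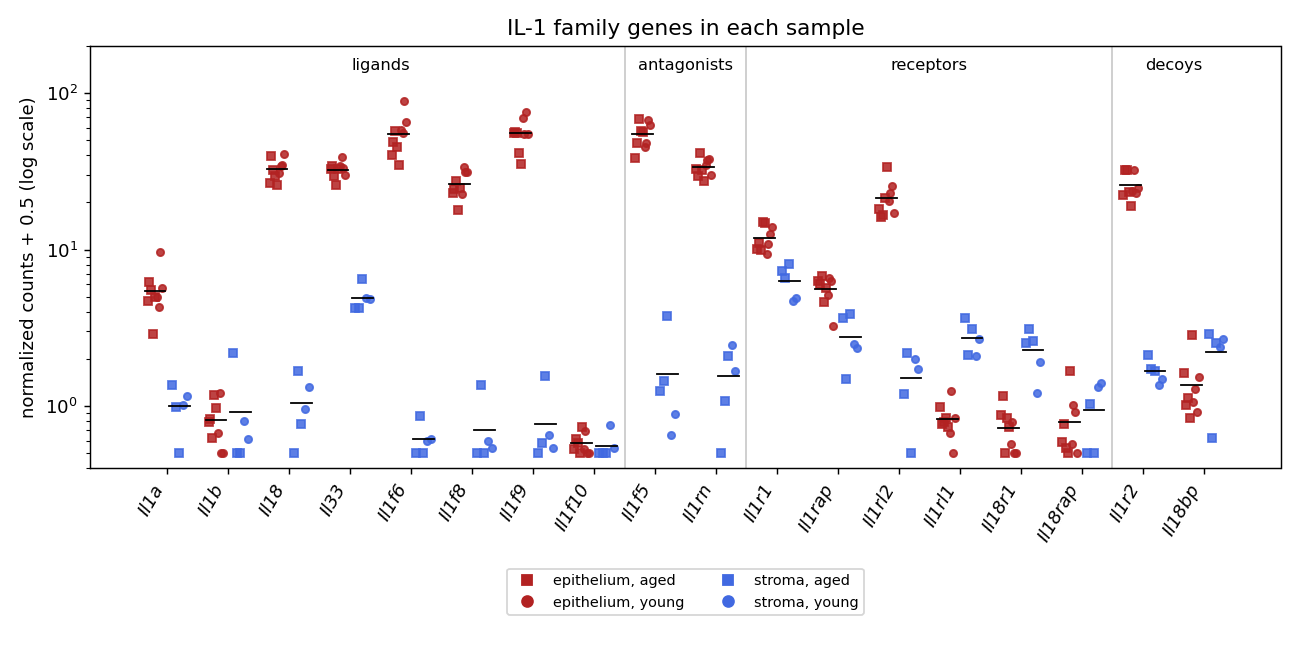
Each point is 1 sample, plotted as normalized counts plus 0.5 on a log axis for 18 IL-1 family genes, with epithelium in red, stroma in blue, squares for aged and circles for young mice, and black lines at the layer means. Il1f6, Il1f8 and Il1f9 lie above 17 in every epithelial sample and near the bottom of the axis in stroma, and Il1rl1 and Il18r1 are higher in stroma.

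The receptors of these ligands divided between the layers. Il1rl2, the receptor of IL-36, averaged 20.8 ± 5.57 normalized counts in epithelium (SD, n = 9), with 0.697, 1.68, 0, 1.49 and 1.22 in the stroma of O1, O2, O3, Y1 and Y3. It was thus higher in the same layer as its agonists (log2 fold change 4.34 ± 0.49 SE, adjusted p = 6.63e-07). The signalling receptor Il1r1 was measured in both layers, at 11.4 ± 2.17 in epithelium and 5.81 ± 1.47 normalized counts in stroma (SD, n = 9 and n = 5), with no overlap (log2 fold change 0.95 ± 0.21 SE, adjusted p = 0.000664). Il1rap, the accessory chain that the IL-1, IL-33 and IL-36 receptors share, was likewise in both, at 5.13 ± 1.13 and 2.26 ± 0.979 (log2 fold change 1.20 ± 0.31 SE, adjusted p = 0.00249), and its layers overlapped. Neither Il1r1 nor Il1rap was called when tested against a fold change of 2. The decoy Il1r2, which binds IL-1 without signalling, ran from 18.5 to 31.8 in epithelium (median 23.3) and from 0.873 to 1.63 normalized counts in stroma. The difference was 4.44 ± 0.23 on the log2 scale (SE, adjusted p = 3.94e-12). Per kilobase, Il1r2 exceeded Il1r1 by 4.32 to 11.2 times in the 9 epithelial samples. Without division by length their epithelial means were 25.4 and 11.4 normalized counts.

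The binding chains of the IL-33 and IL-18 receptors were lower in epithelium, unlike the shared chain Il1rap. Il1rl1, which encodes ST2, the IL-33 receptor, had 3.14, 1.64, 2.59, 1.59 and 2.20 normalized counts in the stroma of O1, O2, O3, Y1 and Y3 and at most 0.749 in epithelium. No sample of one layer overlapped the other, and the log2 fold change was -2.62 ± 0.49 (SE, adjusted p = 0.000135). Il18r1, the binding chain of the IL-18 receptor, had 2.03, 2.62, 2.09, 0.719 and 1.41 in the same stromal order and at most 0.663 normalized counts in epithelium (log2 fold change -2.77 ± 0.69 SE, adjusted p = 0.00184). In epithelium both chains were at or under the level of 3 counts in the 4 mice with epithelium only. Il33 and Il18 were higher in epithelium in each of the 5 mice with both layers, and Il1rl1 and Il18r1 were lower there in each. The summed mast cell markers were 7.71 to 20.0 normalized counts in stroma and 0.811 to 7.20 in epithelium, and the summed markers of T and natural killer cells 3.07 to 15.0 and 0.536 to 3.09. Both cell types can carry these receptors, and the part of their numbers in the result was not tested. The accessory chain Il18rap, with 0 to 0.902 normalized counts in stroma, was not tested. Il18bp, the soluble protein that neutralizes IL-18, did not pass the test (log2 fold change -1.02 ± 0.58 SE, adjusted p = 0.139), and 80 of its exonic bases overlap Numa1 on the opposite strand. The synaptic receptors Il1rapl1 and Il1rapl2 were not tested. Il1rapl1 had 3.66 normalized counts in the stroma of O3 and at most 0.925 in any other sample.

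Most of these genes lie in 2 clusters. Along chromosome 1 (40074079 to 40551705 in GRCm38, all on the plus strand) the order is Il1r2, Il1r1, Il1rl2, Il1rl1, Il18r1 and Il18rap. The first 3 were higher in epithelium and the next 2 were lower, so that the direction changed between the neighbours Il1rl2 and Il1rl1. On chromosome 2 (24153161 to 24351494, all on the plus strand) the order is Il1f8, Il1f9, Il1f6, Il1f5, Il1f10 and Il1rn, and every one of these that was tested was higher in epithelium. Il1a and Il1b lie farther along the same chromosome on the minus strand. Il33 is on chromosome 19, Il18 on chromosome 9 and Il1rap on chromosome 16.

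**Figure D3:**
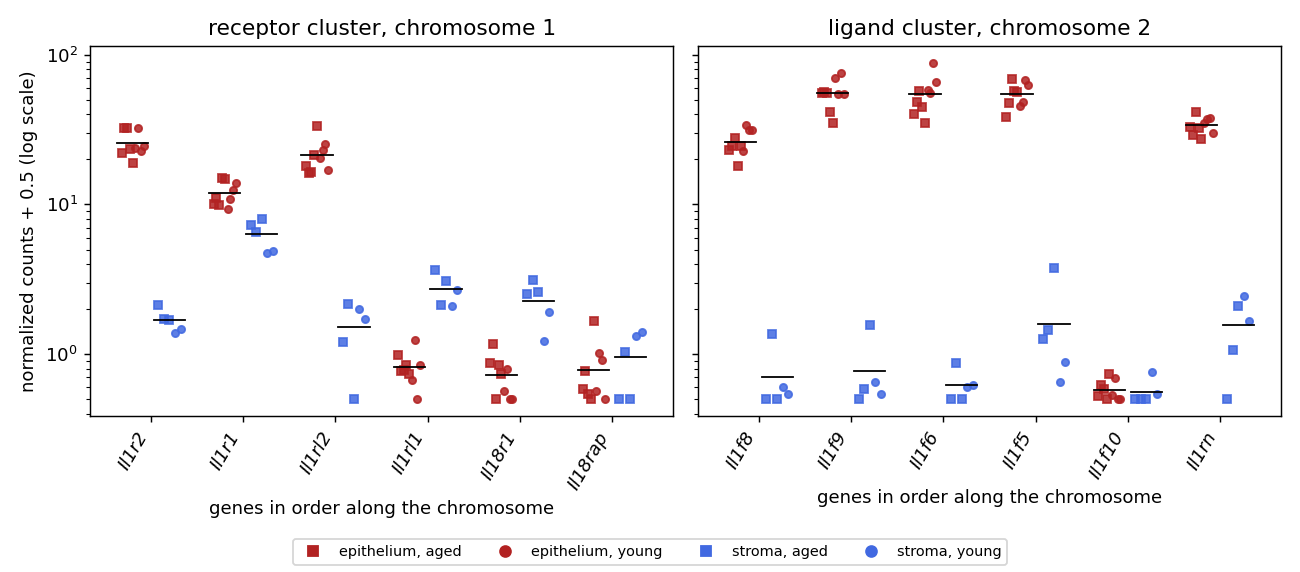
Points are samples, as normalized counts plus 0.5 on a log axis, for the genes of the receptor cluster on chromosome 1 and the ligand cluster on chromosome 2, in their order along the chromosome and not to scale. Epithelium (red) lies above stroma (blue) for Il1r2, Il1r1 and Il1rl2 and below it for Il1rl1 and Il18r1, while in the ligand cluster Il1f10 alone is near 0 in both.

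Promoter windows, 250 bases before to 50 after the annotated start in GRCm38.p6 from RefSeq, were found for 19 of the 20 IL-1 family genes, all but Il1f6. For genes with several windows, among them Il1rl1 with 2, only the window nearest the gene start was searched. They are shown for 2 epithelial ligands, Il1f8 and Il1a, and for the neighbouring receptors Il1rl2 and Il1rl1, which differed in direction between the layers. Capitals mark the letters TGANTCA, the form bound by AP-1 factors, and TATAAA, the TATA box, read on both strands.
Il1f8: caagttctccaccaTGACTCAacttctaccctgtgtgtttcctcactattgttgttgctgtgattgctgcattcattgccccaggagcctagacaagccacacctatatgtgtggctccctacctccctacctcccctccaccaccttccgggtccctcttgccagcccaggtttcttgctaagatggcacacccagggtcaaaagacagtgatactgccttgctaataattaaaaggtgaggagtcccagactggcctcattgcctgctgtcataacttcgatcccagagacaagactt
Il1a: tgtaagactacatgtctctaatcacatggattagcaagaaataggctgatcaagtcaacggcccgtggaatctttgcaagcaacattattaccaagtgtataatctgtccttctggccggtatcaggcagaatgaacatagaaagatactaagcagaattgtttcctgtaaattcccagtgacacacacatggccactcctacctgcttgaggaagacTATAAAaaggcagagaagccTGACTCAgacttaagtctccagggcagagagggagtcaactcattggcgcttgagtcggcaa
Il1rl2: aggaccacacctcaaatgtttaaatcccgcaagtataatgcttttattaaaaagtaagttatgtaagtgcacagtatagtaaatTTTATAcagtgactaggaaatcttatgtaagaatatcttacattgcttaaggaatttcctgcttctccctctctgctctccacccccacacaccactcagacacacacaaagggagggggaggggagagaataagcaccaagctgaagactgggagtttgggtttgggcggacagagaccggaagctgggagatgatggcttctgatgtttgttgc
Il1rl1: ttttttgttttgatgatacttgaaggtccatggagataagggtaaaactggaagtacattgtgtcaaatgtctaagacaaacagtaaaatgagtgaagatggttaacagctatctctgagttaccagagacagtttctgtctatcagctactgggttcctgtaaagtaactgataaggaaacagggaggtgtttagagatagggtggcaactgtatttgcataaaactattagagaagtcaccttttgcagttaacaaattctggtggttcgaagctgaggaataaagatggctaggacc
The Il1f8 window is chr2:24152922-24153221 (plus strand), that of Il1a chr2:129309923-129310222 (minus strand), that of Il1rl2 chr1:40324339-40324638 and that of Il1rl1 chr1:40429320-40429619 (both plus strand). Il1f8 and Il1a each hold 1 match to TGANTCA, and the Il1rl1 window holds no match to either motif. Il1a and Il1rl2 each hold 1 match to TATAAA. That of Il1a lies at -32 from the annotated start, and that of Il1rl2 at -166 on the opposite strand. Of the 19 windows, 3 hold TGANTCA, against 7.81% of 32851 windows of all genes, and 5 hold TATAAA, against 13.6%. The letters CACCC, bound by KLF factors, were in 12 of the 19 and in 57.5% of all windows. The 3 windows with TGANTCA are those of Il1a, Il1f8 and Il1rn. They are 3 of the 11 windows of genes called higher in epithelium, and those of Il18, Il33 and Il1f9 hold no match. A match of letters does not show that a factor binds there.

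Outside the IL-1 family, receptor chains divided between the layers. Of 32 receptors and decoys in the other families, 20 were tested, 6 were higher in epithelium (30.0% of those tested, against 26.1% of all genes) and 9 were lower (45.0% against 30.1%). Il17rc, a chain of the receptor of IL-17A and IL-17F, ran from 32.1 to 47.0 normalized counts in epithelium (median 42.0) and had 5.98, 10.1, 5.37, 8.58 and 6.55 in the stroma of O1, O2, O3, Y1 and Y3. The layers were far apart (log2 fold change 2.43 ± 0.19 SE, adjusted p = 9.45e-10). Il17ra, the chain with which it pairs, did not pass the test (log2 fold change 0.42 ± 0.29 SE, adjusted p = 0.227). Il17re, the receptor of the epithelial cytokine IL-17C, had 3.76 ± 0.814 normalized counts in epithelium and 1.32 ± 1.18 in stroma (log2 fold change 1.51 ± 0.61 SE, adjusted p = 0.0407), and the call was lost in 9 of 18 alternatives, among them the fit with mouse as a block (adjusted p = 0.0826). Il17rb, a receptor of IL-25, was not called (adjusted p = 0.104).

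In the IL-10 and IL-20 receptor group, Il20rb, Il22ra1 and Il10rb were higher in epithelium. Il20rb, a chain of the receptors of IL-20 and IL-24, ran from 17.8 to 31.0 normalized counts in epithelium (median 22.7) and had 4.30, 1.23, 0.305, 1.90 and 1.61 in the stroma of O1, O2, O3, Y1 and Y3 (log2 fold change 3.73 ± 0.40 SE, adjusted p = 2.2e-07). Il22ra1, the chain that makes epithelia responsive to IL-22, ran from 8.92 to 12.8 in epithelium (median 10.4) and from 0 to 2.51 normalized counts in stroma (log2 fold change 3.50 ± 0.58 SE, adjusted p = 4.86e-05). Il10rb, shared by the receptors of IL-10, IL-22 and interferon lambda, had 10.6 ± 2.26 against 5.10 ± 2.91 normalized counts (log2 fold change 1.05 ± 0.28 SE, adjusted p = 0.00364), and its layers overlapped. Ifnlr1, the other interferon lambda receptor chain, was also higher in epithelium (log2 fold change 1.95, adjusted p = 0.0373), but lost its call in 8 of 18 alternatives. Il10ra, which binds IL-10, was not called (log2 fold change -0.39, adjusted p = 0.27). Il20ra was too low to be tested, with means of 0.277 normalized counts in epithelium and 0.096 in stroma. The ligands of this group were near the limit of detection: Il22 had at most 1.45, Il20 at most 0.196 and Il24 at most 0.704 normalized counts in any sample, and none was tested.

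The receptors of type 2 cytokines were measured in both layers. Il13ra1, a chain of the receptor that IL-4 and IL-13 share, had 12.5 ± 5.10 normalized counts in epithelium and 0.116, 1.84, 4.30, 0.308 and 2.08 in the stroma of O1, O2, O3, Y1 and Y3. It was higher in epithelium (log2 fold change 2.85 ± 0.60 SE, adjusted p = 0.000707), and the layers overlapped only because the epithelium of YF5 had 2.07, while the other 8 epithelial samples had at least 8.44. Il4ra, its partner chain, had 5.34 ± 2.12 in epithelium and 7.86 ± 5.36 normalized counts in stroma and did not pass the test (adjusted p = 0.283). The cytokines Il4, Il5 and Il13 had too few counts to be tested. Il5 had 1.79 normalized counts (47 counts) in the stroma of O3 and at most 0.514 in any other sample, Il4 had at most 0.824 (21 counts, in the stroma of Y3), and Il13 stayed at or below 0.261 normalized counts in every sample.

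In stroma, the receptor chains of the IL-6 family were the most abundant interleukin genes. Il6st encodes gp130, the signalling chain of IL-6, IL-11 and related cytokines, and it had 128, 147, 115, 130 and 136 normalized counts in the stroma of O1, O2, O3, Y1 and Y3, against 31.5 to 55.2 in epithelium (median 48.9). No samples overlapped, and the log2 fold change was -1.48 ± 0.15 (SE, adjusted p = 4.21e-08). Il6ra, the binding chain of IL-6, had 20.2, 19.6, 33.2, 29.5 and 34.1 in the same stromal order and 6.52 to 18.3 normalized counts in epithelium (log2 fold change -1.13 ± 0.20 SE, adjusted p = 6.1e-05). Il11ra1, the IL-11 receptor, had 38.1, 27.4, 13.8, 16.7 and 19.9 normalized counts in stroma and 1.66 to 5.86 in epithelium (log2 fold change -2.75 ± 0.25 SE, adjusted p = 1.4e-08). Il11ra2 is a near-identical copy of Il11ra1, and reads of the pair may have been divided by the counting. Lifr, which pairs with gp130 for other cytokines of the family, was lower in epithelium as well (log2 fold change -1.54, adjusted p = 1.48e-06). Skeletal muscle markers far exceeded fibroblast markers in this tissue (given above), and the part of muscle in these results was not tested. The ligands were scarce: Il6 had 33, 25 and 5 counts in the stroma of O2, Y1 and Y3 and none in that of O1 and O3, and Il11 was at or below 0.736 normalized counts in every sample.

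Il17rd and Il16 were the other genes clearly lower in epithelium. Il17rd, which encodes Sef, an inhibitor of fibroblast growth factor signalling with the fold of an IL-17 receptor, had 17.7, 17.6, 9.56, 12.6 and 12.4 normalized counts in the stroma of O1, O2, O3, Y1 and Y3. It had 0.345 to 3.77 in epithelium, without overlap (log2 fold change -2.52 ± 0.28 SE, adjusted p = 1.64e-07). Il16, the precursor of a ligand of CD4, had 3.78, 5.73, 6.59, 6.68 and 9.10 in the same stromal order against 0.415 to 3.09 normalized counts in epithelium (log2 fold change -1.91 ± 0.32 SE, adjusted p = 4.21e-05). Stard5 overlaps 1084 exonic bases of Il16 on the opposite strand. Il34, a ligand of the macrophage receptor encoded by Csf1r, was not called (log2 fold change 1.11 ± 0.57 SE, adjusted p = 0.107), while Csf1r itself was lower in epithelium (log2 fold change -1.53, adjusted p = 1.61e-05). Over all stroma the summed macrophage markers were 64.2 to 110 normalized counts, against 26.1 to 56.9 in epithelium, and their part in these results was not tested. The part of skeletal muscle was not tested either.

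The lymphocyte receptor chains that were lower in epithelium varied widely between the stromal samples. Il2rg, the common gamma chain of the receptors of IL-2, IL-7, IL-15 and others, had 1.45, 0.205, 7.77, 1.34 and 1.06 normalized counts in the stroma of O1, O2, O3, Y1 and Y3 and at most 0.469 in epithelium. Only the stroma of O2 overlapped the epithelium. The log2 fold change was -3.35 ± 0.74 (SE, adjusted p = 0.000651) and became -2.11 without the stroma of O3 (adjusted p = 0.0122), and Il2rg was not called with mouse as a block (adjusted p = 0.0864) and was not tested without mouse O1. Il12rb2, a chain of the IL-12 receptor, had 6.21 normalized counts in the stroma of O1 and 0.0381 to 1.27 in the other stromal samples, and its call (log2 fold change -2.50 ± 0.84 SE, adjusted p = 0.0161) was lost with mouse as a block (adjusted p = 0.141). Without mouse O1, O2 or Y1 it was not tested, and 1419 of its exonic bases overlap the abundant gene Serbp1 on the opposite strand. Il15ra, which presents IL-15, had 3.78 ± 1.64 normalized counts in stroma and 2.12 ± 1.20 in epithelium (log2 fold change -0.95 ± 0.38 SE, adjusted p = 0.0421), and lost its call in 9 of 18 alternatives. Its ligand Il15 was not called (adjusted p = 0.331). The receptors Il7r (log2 fold change -2.02, adjusted p = 0.0157) and Il2ra (log2 fold change -1.56, adjusted p = 0.0397) completed the 12 genes lower in epithelium, and both lost their call with mouse as a block. Il2ra lost it in 12 of 18 alternatives, among them 8 of the 9 that left out a mouse, and Il7r in 4 of 18. They were named after their values were seen.

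The stroma of O3 also led several receptor and cytokine genes too low to be tested, which were named after their values were seen. It had 6.13 normalized counts of Il21r, 4.61 of Il23r, 4.04 of Il27ra and 2.70 of Il19, where the other stromal samples had at most 1.65, 0.668, 1.37 and 0.668. The same sample was highest for the summed markers of B and plasma cells (given above), of T and natural killer cells (15.0 against 3.07 to 8.002) and of Langerhans and dendritic cells (365 against 57.4 to 119). The part of these cells in the result was not tested. Il31ra, the receptor of the itch cytokine IL-31, was instead highest in the stroma of O1 (6.80) and Y3 (2.59) and was at 0 in that of O2 and O3. Il12a, a chain of IL-12, had 2.03, 4.74, 0.114, 3.03 and 1.92 normalized counts in the stroma of O1, O2, O3, Y1 and Y3 and at most 0.293 in epithelium. Il7, the lymphocyte survival factor, had 3.14, 1.31, 0.305, 0.822 and 0.667 and at most 0.241 in epithelium.

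**Figure D4:**
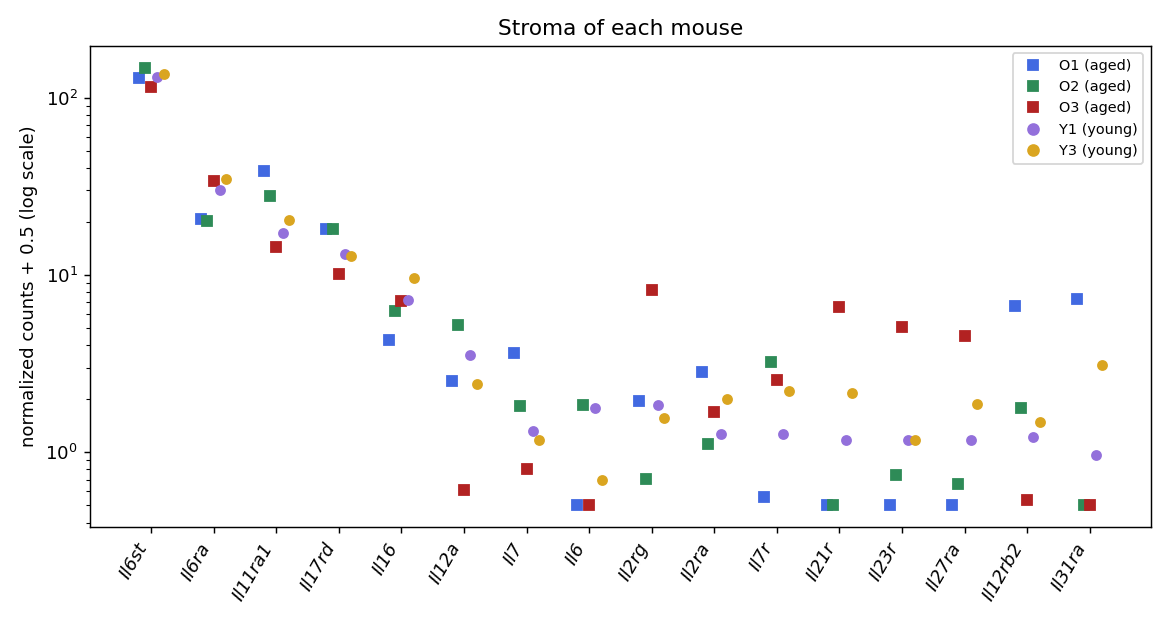
Points are the 5 stromal samples, coloured by mouse, as normalized counts plus 0.5 on a log axis for 16 genes. Il6st is closest together across mice, and Il6ra, Il17rd and Il11ra1 are more spread. O3 is highest for Il2rg (7.77), Il21r (6.13), Il23r (4.61) and Il27ra (4.04) and O1 for Il12rb2 (6.21) and Il31ra (6.80).

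Most secreted interleukins were detected at low levels. The 43 genes that were not tested comprised 27 ligands, 15 receptors or decoys and the enzyme Il4i1, their highest count in any sample was 161, and 10 of them never passed 10 counts. Il17a, Il2 and Il21 were at or below 0.431 normalized counts in every sample, a level that 3 counts alone exceed in the 4 mice with epithelium only. At this depth such ligands may be present at levels that were not detectable.

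The genes downstream of these receptors were read beside them from 3 lists. The first list held 20 genes of IL-1 receptor signalling and the inflammasome, with the gasdermins Gsdma and Gsdmd and the IL-17 receptor adaptor Traf3ip2 added. Of these, 19 were tested, 10 were higher in epithelium (52.6%, against 26.1% of all genes tested) and 2 were lower (10.5%, against 30.1%). The 2 were Irak1 (log2 fold change -0.69) and Gsdmd (-1.15), which lost their calls in 2 of 19 and 8 of 18 alternatives. The list had a median log2 fold change of 1.06 against -0.05 over all genes tested. The largest were Gsdma, a pore-forming gasdermin of squamous epithelium (log2 fold change 6.27, adjusted p = 5.54e-11), the inflammasome adaptor Pycard (4.89, adjusted p = 1.04e-08), the NF-kappaB cofactor Nfkbiz (2.44, adjusted p = 0.000684) and the ubiquitin ligase Traf6 (2.29, adjusted p = 7.49e-08). Casp1, which cuts the IL-18 precursor, gave 2.24 on the log2 scale (adjusted p = 2.5e-06), and Myd88 gave 1.06 (adjusted p = 0.00216). The inflammasome sensor Nlrp3 was not tested, with at most 11 counts in an epithelial sample and 69 in the stroma of O3. Of 16 JAK, STAT and regulator genes, 15 were tested, 3 were higher in epithelium (20.0%) and 5 were lower (33.3%), shares near those of all genes. Stat6, which transmits IL-4 and IL-13 signals, was higher (log2 fold change 1.62, adjusted p = 2.25e-08), as was Cish (1.60), whereas Stat5b (-1.45, adjusted p = 8.36e-08), Socs3 (-1.39) and Jak2 (-1.10) were lower. Stat3, which gp130 and the IL-22 receptor use, was not called (log2 fold change -0.07 ± 0.15 SE, adjusted p = 0.703), and its sign changed between alternatives. Of 18 partner ligands and receptors outside the Il symbols, 14 were tested, 1 was higher (7.14%, against 26.1% of all genes tested) and 7 of the 14 were lower, against 30.1% of all genes.

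Age was compared within each layer, aged over young. In epithelium, tested over 9 samples with a covariate for whether a mouse also had stroma, none of the 34 genes tested was called by edgeR, which called 0.0126% of 15859 genes (2 genes). DESeq2 also called none of the 34. The median log2 fold change (aged over young) was -0.02 for the 34 genes and -0.12 for the 13 tested IL-1 family genes, against -0.00335 for all genes. At an unadjusted p under 0.05 there were 4 of the 34 by edgeR and 3 by DESeq2, and 3.21% of all genes by edgeR.

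The IL-36 agonists had the smallest p-values of the set and were lower in aged epithelium on average. Il1f6 had 39.9, 48.2, 57.0, 44.6 and 34.2 normalized counts in aged O1, O2, O3, OF5 and OM8 and 57.7, 55.5, 87.9 and 64.8 in young Y1, Y3, YF5 and YM4. The groups overlapped by 1 pair, O3 and Y3. The log2 fold change was -0.55 (standard error 0.16, unadjusted p = 0.00365, adjusted p = 0.9996 from edgeR). Il1f9 had 48.2 ± 9.82 normalized counts in aged and 63.2 ± 10.8 in young epithelium (SD, n = 5 and n = 4; log2 fold change -0.43 ± 0.15 SE, unadjusted p = 0.00945 from edgeR), and Il1f8 had 23.0 ± 3.52 and 29.3 ± 4.93 (log2 fold change -0.34 ± 0.16 SE, unadjusted p = 0.0419). None of these passed after adjustment. The difference lay mostly in the mice with epithelium only: the log2 fold change of Il1f6 was -0.93 in these 4 mice and -0.23 in the 5 mice with both layers, and that of Il1f9 -0.75 and -0.17. These 4 mice had the fewest protein-coding counts, and the part of that in the difference was not tested. Il1f5, the antagonist of the same receptor, had 53.1 ± 11.2 and 55.4 ± 10.9 normalized counts (log2 fold change -0.02 ± 0.16 SE, with a sign that changed between alternatives). Of the 8 squamous markers, 7 also had negative log2 fold changes with age, with a median of -0.23, and their part in the result was not tested.

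Il17rc and Il15 were the remaining genes among the 5 smallest p-values. Il17rc had 39.5, 47.0, 42.7, 44.2 and 42.0 normalized counts in aged O1, O2, O3, OF5 and OM8 and 43.0, 32.1, 32.4 and 32.1 in young Y1, Y3, YF5 and YM4. Apart from Y1, the young samples were below every aged one (log2 fold change 0.27 ± 0.13 SE, unadjusted p = 0.0466 from edgeR). Il15 had 2.08 ± 0.421 in aged and 1.17 ± 0.569 normalized counts in young epithelium, and no sample overlapped (log2 fold change 0.50 ± 0.35 SE, unadjusted p = 0.166). The value of YF5, 0.415, was below the level of 3 counts. Il33, Il18 and Il1rn had log2 fold changes of -0.18, -0.19 and -0.13.

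**Figure D5:**
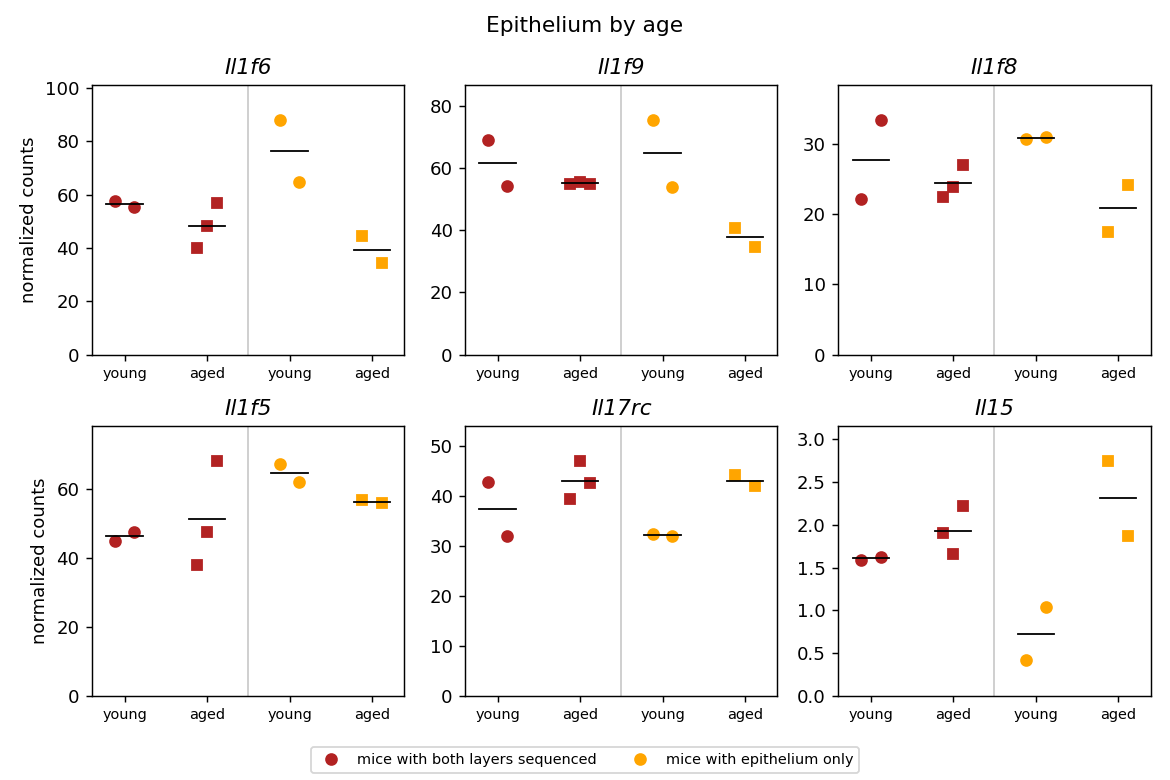
Points are epithelial samples, on a linear axis of normalized counts from 0, for 6 genes, split into mice with both layers sequenced (red, left of the grey line) and mice with epithelium only (orange), with lines at the means. In the mice with epithelium only both aged samples lie below both young samples for Il1f6, Il1f9 and Il1f8, and in the other mice the ages overlap.

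In stroma, with 3 aged and 2 young samples, none of the 55 genes tested was called by edgeR, nor was any of all 21323 genes (0.0%), and no member had an unadjusted p under 0.05 by edgeR or by DESeq2. The 5 smallest p-values belonged to Il22ra1, Il1f5, Il27, Il2rb and Il1r1. Il22ra1 had 0.232, 0 and 0.495 normalized counts in aged O1, O2 and O3 and 1.34 and 2.51 in young Y1 and Y3 (log2 fold change -2.96 ± 1.85 SE, unadjusted p = 0.14). Il1f5 had 0.755, 0.941 and 3.24 in aged and 0.154 and 0.392 normalized counts in young stroma (log2 fold change 2.56 ± 1.64 SE, unadjusted p = 0.152). Il1r1 had 6.80, 6.09 and 7.54 in aged and 4.21 and 4.39 in young stroma, without overlap but with an unadjusted p of 0.216 (log2 fold change 0.65 ± 0.49 SE). Il27 (log2 fold change -3.25) and Il2rb (-2.63) were at or below 1.45 normalized counts in every stromal sample. Il33 had 4.47 ± 1.27 and 4.37 ± 0.073 normalized counts in aged and young stroma (SD, n = 3 and n = 2). The summed squamous markers in stroma were 64.9, 473 and 256 normalized counts in O1, O2 and O3 and 82.8 and 51.5 in Y1 and Y3, and their part in the value of Il1f5 was not tested.

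Whether the age difference itself differed between the layers was tested as an interaction (the difference in epithelium minus that in stroma) in the 5 mice with both layers (10 samples). None of 60 genes tested was called by edgeR, and none of all 22771 genes (0.0%). At an unadjusted p under 0.05 stood 2 of the 60 by edgeR and 2 by DESeq2. By edgeR these were Il22ra1 (interaction 3.0 on the log2 scale, standard error 0.97, unadjusted p = 0.00999) and Il1f5 (interaction -2.40, standard error 0.84, unadjusted p = 0.0151), both with the low stromal values given above. With no filter on low counts both were called.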

How the data were processed

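Gene counts of 14 bulk RNA-Seq samples from 9 mice were analysed, with layer and age taken from the labels. The libraries were made from poly(A) RNA. The 3 genes with the most counts were nevertheless CT010467.1, Gm23935 and the mitochondrial ribosomal RNA mt-Rnr2. The authors used Rsubread for alignment to GRCm38.p6 and its featureCounts for counting, and deposited raw whole-number counts per gene. The annotation release, strand setting and treatment of multi-mapping reads are not given in the sources used here. Of 55291 symbols, 53292 were found in the GENCODE M21 annotation of GRCm38, among them all 82 interleukin genes.

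The quasi-likelihood test of edgeR 4.0.16 (R 4.3.3) was run over all genes after TMM normalization and the filterByExpr filter at a minimum count of 10, with robust fitting, Benjamini-Hochberg adjustment and a threshold of 0.05. The layers were compared over all 14 samples without a covariate, since the authors' methods name no pairing. Age in epithelium was fitted with a covariate for mice without stroma, whose codes have another form, and the interaction over the 10 samples of 5 mice. Standard errors were derived from the log2 fold change and its F statistic. The 2 layers of 1 mouse share its code, so the mouse is also a natural block. The correlation of the layers' deviations from their group means was 0.0422 to 0.141 in the 5 mice. Per-kilobase levels were divided by merged exon length, so ratios between genes depend on that length. Figures and the search for samples set apart used log2 of normalized counts plus 0.5 where a log scale was needed. The procedure was tested on simulated counts, and no replicate pair agreed within counting noise. For epithelial pairs of one age, the chi-square per degree of freedom was 12.0 to 59.2 within a form of code. Across the 2 forms it was 564 to 946.

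The genes, lists and comparisons were chosen with earlier results of these data known. The genes named are all of the IL-1 family, up to 8 others called in each direction between layers by largest fold change (average log2 CPM 0 or more), the 5 smallest p-values by age, ligand and receptor pairs, and examples of each list; others are marked in the text. Alternatives were DESeq2 1.42.0, other filters and normalization, mouse as a block, subsets of samples and each mouse left out. DESeq2 gave no adjusted p for 140 of 16791 genes between layers and 4623 of 15859 by age in epithelium. Losses before sequencing are not covered by the errors given, and 3 counts per library were taken as the limit of detection.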

Additional observations from a re-analysis of the deposited data

Results flagged for a closer look

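In 7 of 68 groups of samples examined, 1 sample lay far from the others of its group by Dixon's criterion, and chance alone gives about 1 in 20. In stroma, Il18bp was at 0.123 normalized counts in O2 against 1.90 to 2.38 in the other 4 samples, Il1f8 was at 0.859 in O2 against at most 0.103, and Il1f9 was at 1.07 in O3 against at most 0.154. In epithelium, Il13ra1 was at 2.07 in YF5 against 8.44 to 18.7 in the other 8 samples, and Il12rb2 was at 1.66 in the same sample against at most 0.392. Il17rd was at 0.345 in the epithelium of YM4, the level of 1 count, against 1.66 to 3.77. Among young epithelial samples Il17rc was at 43.0 in Y1 against 32.1 to 32.4. YF5 and YM4 are among the 4 samples with the fewest protein-coding counts.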

How the results depend on the processing

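Of 70 log2 fold changes of named genes followed through the alternatives, 68 kept their sign in every one that tested them. The exceptions, neither called, were Stat3 between layers and Il1f5 by age in epithelium. Stat3 gave 0.11 with no filter, 0.18 with mouse as a replicate block, 0.042 in the same 10 samples without it, 0.050 without the stroma of O3 and -0.18 to 0.022 with each mouse left out. Il1f5 gave 0.013 with at least 10 counts in every sample, 0.0057 without mitochondrial and top genes, 0.14 in the 5 mice with both layers and -0.17 to 0.066 with each mouse left out. Of the 18 genes higher and 12 lower in epithelium, 5 and 2 were called when at least 10 counts were required in every sample, which left 8 of the 82 genes tested. With no filter 21 were lower, and against a fold change of 2 there were 7. Leaving out each mouse in turn gave 27 to 32 calls in all. DESeq2 called 31, including all 30. With mouse as a replicate block (10 samples), 26 were called, 24 of them among the 30. The same samples without the block gave 30, 29 of them shared. Under the block Il12rb2, Il15ra, Il17re, Il2rg, Il2ra and Il7r were not called and Il12a and Il7 were; without it, in these samples, Il17re was not called either and Il3ra was. The filter kept 60 of the 82 genes under the block and 39 without it. Without the stroma of O3, or of Y1 and Y3, both chosen after seeing the data, 33 and 31 were called. By age no gene was called in epithelium in 17 alternatives or in stroma in 10. The interaction gave 0 in 10 alternatives and 2, Il1f5 and Il22ra1, with no filter. The cause of these changes was not tested. Low counts kept 43 genes from being tested, and the comparison of 3 with 2 stromal samples rests on very few mice.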
